A study of Mus musculus with 12 samples.

Results

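The genes described here encode the retinoic acid receptors, Rara, Rarb and Rarg, and the retinoid X receptors, Rxra, Rxrb and Rxrg. They were picked by symbol, and each of the 6 symbols matched exactly 1 of the 37991 Ensembl identifiers in the count table; all 6 were among the 18612 genes that passed the filter on low counts. RNA-seq had been made from 12 thymic lymphomas, 1 library a tumour, of which 4 were labelled non-responder and 8 responder to p53 restoration. The mice were of C57BL/6 background and all carried p53neo/R172H with R26CreER/GNZ, that is, a neo allele of the p53 gene from which tamoxifen-activated Cre restores the wild-type gene, a mutant allele with the R172H change, and the Cre fused to an oestrogen receptor domain. Tumours of both groups came from tamoxifen-treated animals, taken after the last magnetic resonance scan, so there was no untreated tumour. The response had been read from the scans as growth or shrinkage.

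Retinoic acid receptors are ligand-activated transcription factors that bind retinoic acid, a derivative of vitamin A. They bind DNA as heterodimers with retinoid X receptors, at direct repeats of a short half-site, recruit corepressors without ligand and exchange them for coactivators when ligand binds. Retinoid X receptors are also the shared partners of other nuclear receptors, among them those for vitamin D, thyroid hormone, oxysterols and fatty acids. In the mouse thymus retinoids are known to act on the survival of thymocytes, and in peripheral T cells retinoic acid is known to induce gut-homing receptors.

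Library totals lay between 20796860 and 24393524 counts in non-responders and between 23808086 and 30265753 counts in responders. The 10 T-cell markers checked (Cd3d, Lck, Bcl11b and others) were detected in every tumour, with a summed level of 4241 to 5163 CPM (counts scaled to 1000000 per library, on totals adjusted by the trimmed mean of M values) in non-responders and 1617 to 5287 CPM in responders. Rag1, which encodes a recombinase of immature cortical thymocytes, divided the tumours: 5 had between 0.410 and 2.91 CPM and 7 between 168 and 1756 CPM. All 5 tumours with Rag1 below 10 CPM, responders 4 to 8, were responders, whereas the 7 above 100 CPM held the 4 non-responders and responders 1 to 3. In the tumours with low Rag1 the response label and the Rag1 level therefore cannot be told apart. The division by Rag1 rests on a measured gene and not on a label, so it is used for description, and no test was made between its sides.

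Of the receptor genes, all but Rxrb had lower mean levels in non-responders, and Rxrb had nearly equal means. The 95% intervals of the log2 fold change took in 0 for Rara, Rarb, Rxrb and Rxrg but not for Rarg and Rxra. None of the 6 genes passed the adjusted threshold of 0.05 in edgeR's quasi-likelihood test, where 0 of 18612 genes passed (0%). At an unadjusted p under 0.05, 2 of the 6 were reached, Rarg and Rxra, both lower in non-responders, against 4428 genes or 23.8% of all tested. In the direction lower in non-responders that share was 16.1%. DESeq2 called the same 2 receptor genes, where it called 2462 genes in all (13.2% of those tested, and 10.4% as lower in non-responders). limma-voom called 0 of the 6, where it called 1647 genes in all (8.85%, and 4.48% as lower in non-responders). In every one of the 6 genes the values of the groups overlapped, as did those of most genes, since 2.13% of tested genes had CPM that did not overlap between the groups.

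**Figure D1:**
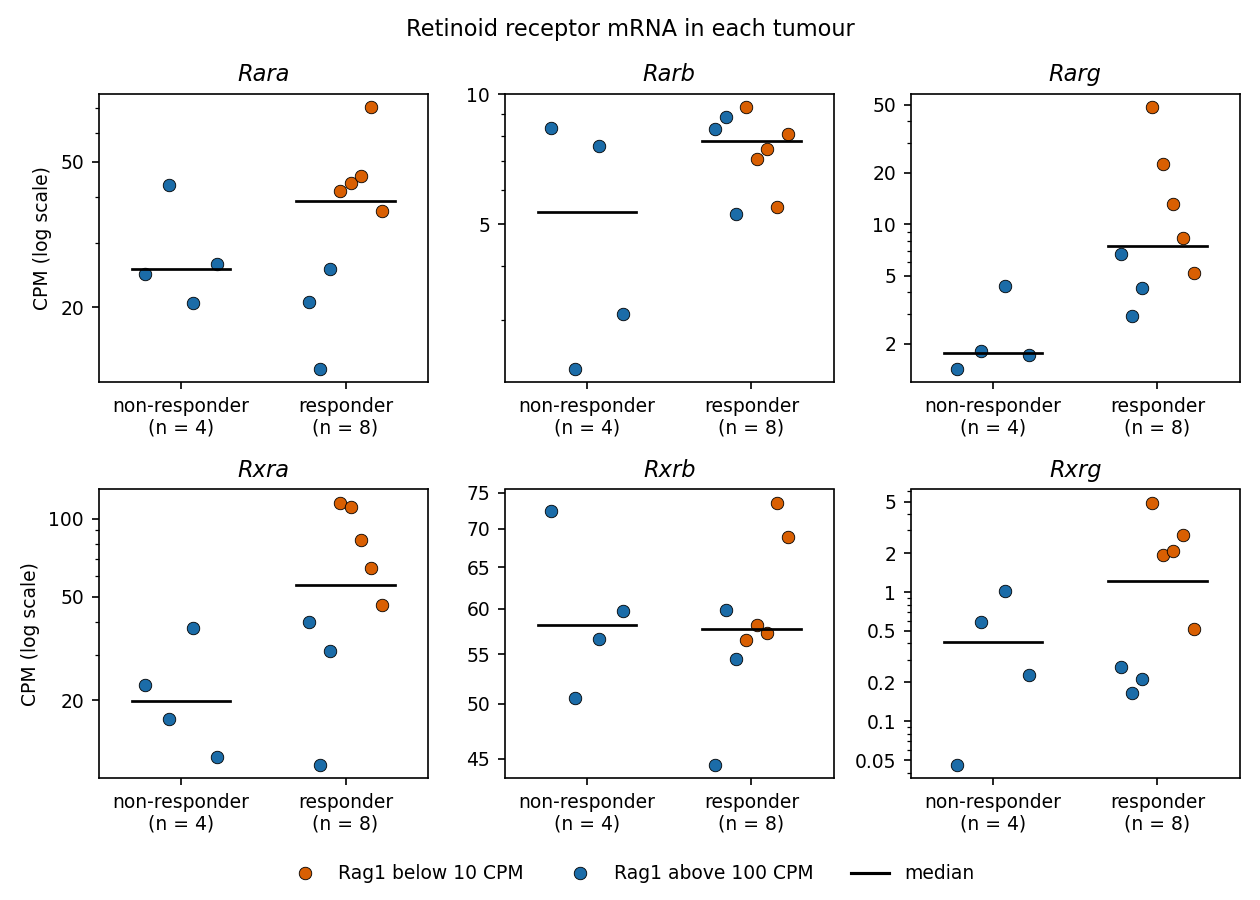
CPM of each receptor gene (vertical axes, log scale, each with its own range) in the 4 non-responders and 8 responders; a point is a tumour, coloured by Rag1 level, and the line is the group's median. For Rarg and Rxra the highest points are responders with low Rag1, and for Rxrb the groups lie at the same height.

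Rarg encodes the gamma receptor, which is known from mouse skin and cartilage. Non-responders 1 to 4 had 1.42, 1.81, 4.33 and 1.73 CPM. Responders 1 to 3, with high Rag1, had 6.67, 2.92 and 4.26 CPM. Responders 4 to 8, with low Rag1, had 48.7, 22.4, 13.1, 8.31 and 5.16 CPM. Thus 3 non-responders lay below every responder, non-responder 3 lay among the responders, and 6 of 8 responders lay above every non-responder. The means were 2.32 ± 1.35 CPM in non-responders (SD, n = 4) and 13.9 ± 15.4 CPM in responders (SD, n = 8). In edgeR this gave a log2 fold change of -2.59 (95% interval -4.30 to -0.87, SE 0.79), and the adjusted p was 0.118 in edgeR and 0.00518 in DESeq2. On mean log2 CPM the difference was -2.09, with a two-sided exact permutation p of 0.0182 over the 495 splits of the tumours (n = 4 and 8). This was 1 of 8 such permutation tests, and the p-values were not adjusted over them. Within the 7 tumours with high Rag1 the edgeR log2 fold change was -1.01 (SE 0.51, 95% interval -2.19 to 0.16, adjusted p = 0.884), and the permutation p was 0.114, where 0.0286 is the smallest that 4 against 3 tumours can give. Without responder 4 the log2 fold change over the remaining tumours was -1.95, and with every library thinned to the size of the smallest it was -2.58.

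Rarg has 2 transcription starts in the RefSeq promoter table of GRCm38.p6, and the bases before them are shown because this is the receptor gene whose groups stood furthest apart. The gene (ENSMUSG00000001288) lies on chromosome 15 from 102234938 to 102257517 on the minus strand in GENCODE M21 (GRCm38). The 120 bases before each start, 5′ to 3′ on the gene's strand, are given in lower case, at chr15:102257523-102257642 and chr15:102246501-102246620.
Rarg, upstream start: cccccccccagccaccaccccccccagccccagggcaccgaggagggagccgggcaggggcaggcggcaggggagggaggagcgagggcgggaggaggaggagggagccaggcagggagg
Rarg, downstream start: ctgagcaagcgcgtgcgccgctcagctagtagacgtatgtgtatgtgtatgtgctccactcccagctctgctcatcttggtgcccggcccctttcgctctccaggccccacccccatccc
The window of 300 bases around the first start was 70.0% G and C and that around the second 51.7%, where the median of all 32851 windows was 52.7%. Neither window held a direct repeat of the retinoid half-site with 1, 2 or 5 bases between its copies (DR1, DR2 and DR5), on either strand. The half-site searched was A or G, then G, then G or T, then TCA. The counts are per gene and do not tell which start was used.

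Rxra encodes the alpha member of the retinoid X receptors, the broadly expressed partner needed for heart development in the mouse. Non-responders 1 to 4 had 22.8, 17.0, 37.9 and 12.1 CPM. Among responders, tumours 1 to 3 had 39.9, 11.3 and 31.0 CPM, and tumours 4 to 8 had 115, 111, 83.0, 64.4 and 46.5 CPM. Responder 2 was the lowest of all 12, and 6 of 8 responders lay above every non-responder. The means were 22.5 ± 11.2 CPM in non-responders (SD, n = 4) and 62.7 ± 37.6 CPM in responders (SD, n = 8). Their log2 fold change was -1.48 (95% interval -2.66 to -0.30, SE 0.55). The edgeR adjusted p was 0.138, the DESeq2 adjusted p 0.0421 and the exact permutation p 0.0707 (n = 4 and 8). Within the high-Rag1 tumours the log2 fold change was -0.31 (SE 0.50, 95% interval -1.46 to 0.84, edgeR adjusted p = 0.962).

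Set by Rag1, Rxra was the receptor gene whose values did not overlap. The 5 tumours with low Rag1 had 46.5 to 115 CPM, with a median of 83.0, and the 7 with high Rag1 had 11.3 to 39.9 CPM, with a median of 22.8. Of all tested genes, 5.31% were likewise higher without overlap in the low-Rag1 tumours, so Rxra was 1 of 989 such genes. For Rarg the same tumours had 5.16 to 48.7 CPM against 1.42 to 6.67 CPM, and the overlap came from responders 1 and 8.

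**Figure D2:**
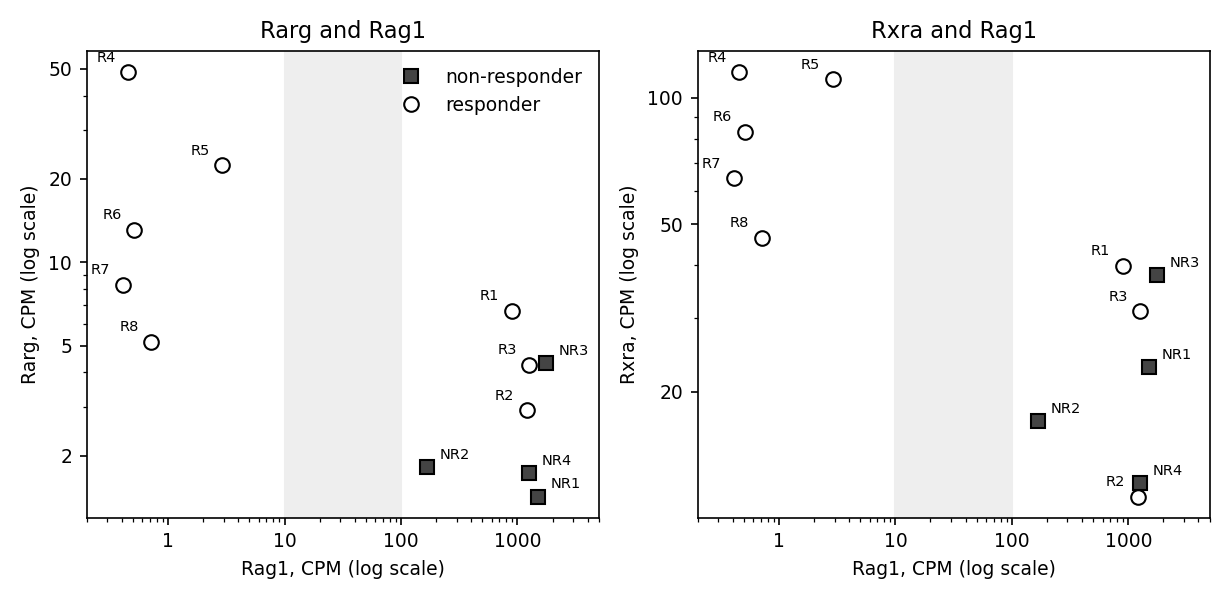
CPM of Rarg (left) and Rxra (right) against CPM of Rag1 in each tumour, all on log scales; squares are non-responders, open circles responders, and the grey band spans 10 to 100 CPM of Rag1, where no tumour lies. The 5 responders left of the band have 46.5 to 115 CPM of Rxra, above the 7 tumours right of it, where responder 1 lies just above the 4 non-responders for Rxra, responder 3 among them and responder 2 just below.

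Most markers of other cell types had lower means in non-responders, as 0 of the 10 T-cell markers did. Of all 18612 tested genes, 9589 had a negative log2 fold change. Of the 11 lists of other cell types, 10 markers each, those of endothelium, muscle, adipocytes, neutrophils, lung epithelium, B cells and dendritic cells had a lower non-responder mean for all 10 genes, as did all 9 erythroid genes in the table, 9 of 10 thymic epithelial, 8 of 10 macrophage and 6 of 10 fibroblast genes. No listed marker was at 0 in every tumour; Elane, a neutrophil elastase gene, was at 0 in all 4 non-responders. The summed endothelial level was 123 to 183 CPM in non-responders and 173 to 721 CPM in responders. The summed macrophage level was 1098 to 3382 CPM in non-responders and 849 to 3379 CPM in responders, and the summed fibroblast level 707 to 1497 CPM in non-responders and 359 to 1843 CPM in responders. The remaining lists summed, in CPM, to 74.1 to 347 in non-responders and 160 to 1384 in responders for muscle, 71.4 to 155 and 106 to 1782 for adipocytes, and 23.9 to 45.4 and 43.0 to 762 for neutrophils. In the same order of groups, erythroid genes summed to 15.6 to 364 and 141 to 2805 CPM, thymic epithelial genes to 84.7 to 380.5 and 151 to 524 CPM, and lung epithelial genes to 7.25 to 22.3 and 8.55 to 70.4 CPM. For B-cell genes the sums were 26.9 to 90.8 CPM in non-responders and 34.3 to 542 CPM in responders, and for dendritic-cell genes 106.5 to 301 and 141 to 2349 CPM. In bulk tumours fewer cells of a type and less RNA per cell cannot be told apart.

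Responder 4, with the highest Rarg, had the highest endothelial sum (721 CPM), fibroblast sum (1843 CPM) and adipocyte sum (1782 CPM) of the 12 tumours and the lowest T-cell sum (1617 CPM). Its muscle (1384 CPM), B-cell (542 CPM) and thymic epithelial (524 CPM) sums were the highest of the 12 too. Responder 8, the low-Rag1 tumour with the least Rarg and Rxra, had the lowest fibroblast sum of all (359 CPM) and an endothelial sum of 186 CPM. The non-responder with the most Rarg and Rxra, non-responder 3, had the highest macrophage sum (3382 CPM). It also had the lowest endothelial (123 CPM), neutrophil (23.9 CPM) and erythroid (15.6 CPM) sums of the 12 tumours. Among non-responders its adipocyte (155 CPM), thymic epithelial (380.5 CPM) and dendritic-cell (301 CPM) sums were the highest, and its fibroblast sum (707 CPM) was the lowest. Responder 1, the high-Rag1 responder with the most of both receptor genes, had a macrophage sum of 3379 CPM and the highest dendritic-cell sum of the 12 tumours (2349 CPM). Of the high-Rag1 tumours it had the highest endothelial (267 CPM), neutrophil (271 CPM) and muscle (363 CPM) sums. Its adipocyte (403.5 CPM), lung epithelial (36.4 CPM) and B-cell (245 CPM) sums were the highest of those tumours as well. With the mean score of the 11 lists as a covariate the edgeR log2 fold changes were -0.11 for Rarg (adjusted p = 0.984) and -0.12 for Rxra (adjusted p = 0.982). Most genes of these lists themselves had lower means in non-responders, so in this fit other cells and response cannot be told apart. The part of other cells in the receptor levels was not tested.

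Rara encodes the alpha receptor, which is widely expressed in blood cells and is the partner in the PML fusion of human promyelocytic leukaemia. It stood at 24.6, 43.1, 20.6 and 26.2 CPM in non-responders 1 to 4. Responders 1 to 3 had 20.7, 13.5 and 25.4 CPM, and responders 4 to 8 had 41.5, 43.8, 45.6, 70.7 and 36.7 CPM. Non-responder 2, whose Rag1 (168 CPM) was the lowest of the high-Rag1 tumours, was the high-Rag1 tumour that reached the range of the low-Rag1 ones. The means were 28.6 ± 9.95 CPM in non-responders (SD, n = 4) and 37.2 ± 17.9 CPM in responders (SD, n = 8). The log2 fold change was -0.38 (95% interval -1.19 to 0.43, edgeR adjusted p = 0.556) in all tumours and 0.51 (95% interval -0.25 to 1.27, adjusted p = 0.895) within the high-Rag1 tumours. It was -0.62 without non-responder 2, -0.23 without non-responder 3 and -0.19 without responder 7.

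Rarb encodes the beta receptor, whose gene is itself a classical target of retinoic acid. It had 8.35, 2.30, 7.59 and 3.09 CPM in non-responders 1 to 4. The 8 responders had 5.27 to 9.37 CPM, with a median of 7.79. Non-responders 2 and 4 lay below every responder and non-responders 1 and 3 lay within their range. The means were 5.33 ± 3.08 CPM in non-responders (SD, n = 4) and 7.49 ± 1.49 CPM in responders (SD, n = 8). The edgeR log2 fold change was -0.49 (95% interval -1.26 to 0.28, adjusted p = 0.419), and the exact permutation p was 0.0667 (n = 4 and 8). The fold change was -0.79 without non-responder 1, -0.23 without non-responder 2 and -0.30 without non-responder 4. By Rag1, the ranges were 5.48 to 9.37 CPM in the 5 low-Rag1 tumours and 2.30 to 8.84 CPM in the 7 high-Rag1 tumours, and the medians, 7.49 and 7.59 CPM, were nearly equal. In GENCODE M21, 1793 of its 5265 exon bases overlap exons of Top2b, a topoisomerase gene on the opposite strand with 301 to 1114 CPM in these tumours. Whether strand was used when the reads were counted is not given, nor how reads that fell on both genes were treated. Whether Rarb counts gained or lost Top2b-overlapping reads in that stretch is therefore unknown.

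The Rarb promoter is shown because it holds the retinoic acid response element through which the gene is known to respond to its own ligand. Rarb (ENSMUSG00000017491) lies on chromosome 14 from 16430839 to 16819156 on the minus strand (GENCODE M21, GRCm38), and the 120 bases before its start in the RefSeq table (GRCm38.p6) are at chr14:16575477-16575596. The capitals mark the DR5 element, whose first base lies 53 and whose last base 37 bases before the start.
Rarb: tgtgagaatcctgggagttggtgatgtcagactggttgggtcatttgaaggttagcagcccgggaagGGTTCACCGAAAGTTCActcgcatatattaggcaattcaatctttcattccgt
Of the 13 windows of 300 bases that the table gives for the 6 receptor genes, this was the one with a DR5 match, and none had a DR1 or DR2 match. Among all 32851 windows, searched on both strands, 0.0974% held a DR5, 0.222% a DR1 and 0.268% a DR2. A match is a stretch of letters and does not show binding in these tumours.

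Rxrb, the beta retinoid X receptor, broadly expressed and lying within the mouse MHC region, was the steadiest of the 6 genes. Non-responders 1 to 4 had 72.5, 50.6, 56.6 and 59.7 CPM, and the 8 responders had 44.4 to 73.6 CPM, with a median of 57.7. The means were 59.9 ± 9.25 CPM in non-responders (SD, n = 4) and 59.1 ± 8.89 CPM in responders (SD, n = 8). The log2 fold change was 0.02 (95% interval -0.32 to 0.35, SE 0.15, edgeR adjusted p = 0.956), and its sign turned under upper-quartile scaling (-0.045).

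Rxrg, the gamma retinoid X receptor, known from muscle, brain and cone photoreceptors, was the scarcest. Its counts were 1, 12, 22 and 5 in non-responders 1 to 4, that is, 0.0459, 0.588, 1.01 and 0.227 CPM. The single count of non-responder 1 gave an exact Poisson 95% interval of 0.00116 to 0.256 CPM, for counting error only. Responders 1 to 3 had 0.264, 0.164 and 0.211 CPM, below non-responders 2 and 3. Responders 4 to 8 had 4.91, 1.92, 2.08, 2.76 and 0.516 CPM, so that 4 responders lay above every non-responder. The muscle sums of these 4 tumours were 1384, 587, 1123 and 478 CPM, the 4 highest of the 12. Their erythroid sums, 2410, 2624, 2805 and 1151 CPM, were likewise the 4 highest. Other tumours did not follow this order. Non-responder 3, with the most Rxrg of the non-responders, had a muscle sum of 77.95 CPM and the lowest erythroid sum, 15.6 CPM. Responder 1, with 0.264 CPM of Rxrg, had the next highest muscle sum, 363 CPM. Nor did every list, as the neutrophil sum was 271 CPM in responder 1 and 254 CPM in responder 4. Whether Rxrg came from any other cell type was not tested. The log2 fold change was -1.77 (SE 1.01, 95% interval -3.95 to 0.41, edgeR adjusted p = 0.299), and the exact permutation p was 0.228 (n = 4 and 8). In the high-Rag1 tumours alone the gene did not pass the filter on low counts.

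**Figure D3:**
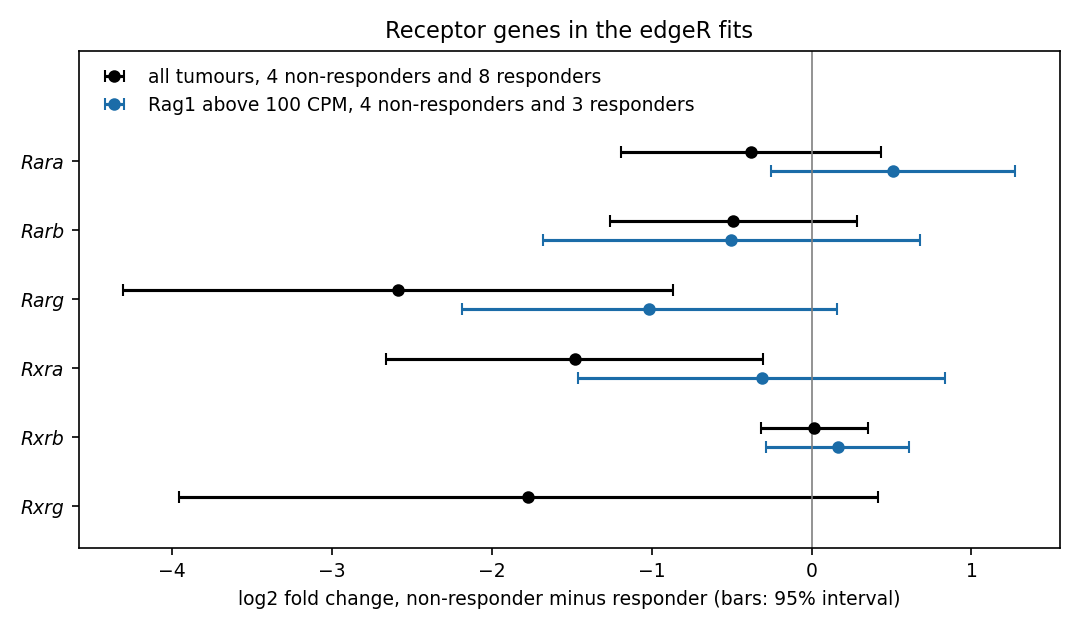
Log2 fold change, non-responder minus responder, of each receptor gene from edgeR (points) with 95% intervals (bars), in all 12 tumours (black) and in the 7 tumours with Rag1 above 100 CPM (blue). Rarg is at -2.59 and -1.01, Rxra at -1.48 and -0.31, and Rara at -0.38 and 0.51; Rxrg was not tested in the 7 tumours.

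Levels of different genes were compared per kilobase of exon, with the exon lengths of GENCODE M21, which run between 2.30 kb for Rxrg and 5.46 kb for Rxra; the annotation used in counting may differ. Rara led the retinoic acid receptors in 11 of 12 tumours, and in responder 4 Rarg led. Rara made up 65.7% to 92.0% of the summed receptor level in non-responders and 41.9% to 84.4% in responders. Rarg made up 4.42%, 3.96%, 14.2% and 5.79% in non-responders 1 to 4. In the responders it made up 10.2% to 50.3%, with a median of 16.3%. Rarb made up 4.08% to 21.0% in non-responders and 5.42% to 30.7% in responders. Its exon length includes the bases shared with Top2b, whose reads may not have been counted alike.

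Among retinoid X receptors Rxrb led in 9 tumours, all 4 non-responders and 5 responders, and Rxra led in responders 4, 5 and 6. Rxra made up 12.8% to 32.1% of their summed level in non-responders and 12.0% to 56.7% in responders. Rxrg stayed at or below 2.04% in non-responders and reached 5.71% in responder 4. The summed retinoid X receptor level exceeded the summed retinoic acid receptor level in every tumour, by 1.499 to 3.02 times in non-responders and 1.64 to 3.15 times in responders. In CPM per kb, the retinoic acid receptors summed to 11.2 to 22.7 in the 5 low-Rag1 tumours. In the 7 high-Rag1 tumours they summed to 5.46 to 10.7. The retinoid X receptors summed to 26.1 to 37.4 and 16.1 to 22.4 in the same order. Neither sum overlapped between the Rag1 sets, and 5.31% of single tested genes were likewise higher without overlap in the low-Rag1 tumours. The sums are made of genes already described, Rxra among them, and are not separate support.

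**Figure D4:**
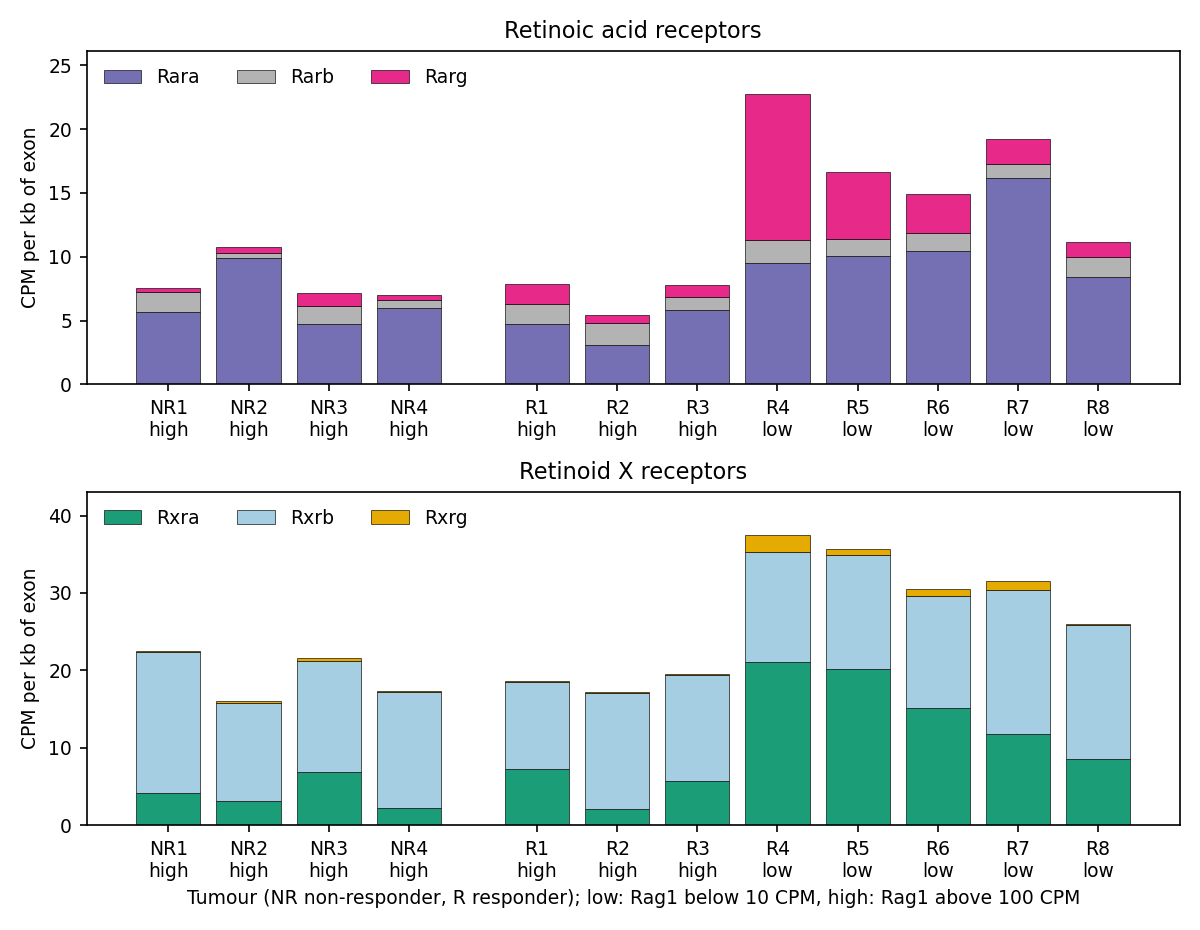
Summed level of the retinoic acid receptors (top) and retinoid X receptors (bottom) in each tumour, in CPM per kb of exon, divided by gene; non-responders (NR) are on the left, responders (R) on the right, with the Rag1 level under each. Rxrb is of like height in all tumours, and Rxra and Rarg add most in responders 4 to 6.

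Ratios within a tumour do not depend on library scaling. The log2 ratio of Rarg to Rara, on CPM and not per length, was -4.04, -4.51, -2.23 and -3.86 in non-responders 1 to 4. In responders it lay between -3.08 and 0.23, with responders 7, 8 and 3 below the highest non-responder. The means were -3.66 ± 0.99 in non-responders (SD, n = 4) and -1.85 ± 1.08 in responders (SD, n = 8). They differed by -1.81 (exact permutation p = 0.0202, n = 4 and 8). It was -1.54 within the high-Rag1 tumours (exact permutation p = 0.0857, n = 4 and 3), and the p was 0.0545 without non-responder 1 and 0.0606 without non-responder 2. The log2 ratio of Rxra to Rxrb averaged -1.53 ± 0.71 in non-responders and -0.20 ± 1.11 in responders (SD, n = 4 and 8). They differed by -1.32 (exact permutation p = 0.0606), and by -0.40 within the high-Rag1 tumours (exact permutation p = 0.6, n = 4 and 3). Both ratios combine the genes already described, so they are not separate support for them.

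The genes closest in pattern were those with the smallest root mean square difference from a receptor gene in centred log2 CPM over the 12 tumours, among 14615 tested protein-coding genes (predicted genes, Riken clones and antigen receptor segments were passed over). For Rarg, whose own SD was 1.52 on this scale, they were Kcnt2, Lrrc4c and Gpx3, at differences of 0.28, 0.30 and 0.30. Gpx3, a secreted glutathione peroxidase gene, averaged 19.2 ± 12.4 CPM in non-responders and 76.2 ± 70.7 CPM in responders (SD, n = 4 and 8), while Kcnt2 and Lrrc4c averaged 2.34 CPM or less in either group. For Rxra (SD 1.150) they were Tns1, Prkg2 and Mrvi1, at 0.31, 0.32 and 0.34; Tns1, which encodes the focal adhesion protein tensin 1, averaged 36.9 ± 18.8 CPM in non-responders and 114 ± 87.4 CPM in responders. For Rara (SD 0.66) they were Ppp1r18, Abhd12b and Sipa1, at 0.26, 0.27 and 0.29. Rarb (SD 0.62) lay closest to Ajuba, Smap2 and Ddhd2, at 0.23, 0.25 and 0.28. For Rxrb (SD 0.21) they were Slc35a2, Scaf8 and Tada3, at 0.11, 0.11 and 0.12, and for Rxrg (SD 1.65) Kctd14, Il22ra2 and Kcna5, at 0.64, 0.66 and 0.67. The receptors of one family were not among these neighbours of each other.

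The genes through which the receptors act were next taken by role, and none of them passed the threshold in edgeR. Of the 8 corepressor genes tested, 6 had a positive and 2 a negative log2 fold change (median 0.28), and of 8 coactivator genes 5 and 3 (median 0.06), where the median of all 18612 tested genes was -0.02. Nrip1, which encodes a ligand-dependent corepressor, was at 226 ± 81.6 CPM in non-responders and 134 ± 63.6 CPM in responders (0.75 on the log2 scale, SE 0.38, edgeR adjusted p = 0.247). The coactivator gene Ncoa3 was at 108 ± 15.1 CPM in non-responders and 141 ± 21.1 CPM in responders (-0.39, SE 0.15, edgeR adjusted p = 0.156), and its log2 fold change was -0.16 with the other-cell score as covariate. DESeq2 and limma-voom called 0 genes in these lists, and at an unadjusted edgeR p under 0.05 there were 0 corepressor genes and 1 coactivator gene, Ncoa3.

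Of the 13 nuclear receptor genes listed as partners of retinoid X receptors, 12 were tested, 4 with a positive and 8 with a negative log2 fold change (median -0.75). Pparg, the fatty acid receptor that drives fat cell formation, was at 3.26 ± 1.74 CPM in non-responders and 12.0 ± 8.55 CPM in responders (-1.88, SE 0.54, edgeR adjusted p = 0.117, DESeq2 adjusted p = 0.00501). Its groups did not overlap, with 5.18 CPM in the highest non-responder and 5.39 CPM in the lowest responder, as was so for 2.13% of all tested genes. Thrb, a thyroid hormone receptor gene, was at 3.94 ± 0.93 CPM in non-responders and 7.67 ± 2.74 CPM in responders (-0.96, SE 0.35, edgeR adjusted p = 0.135). Adipocyte markers, as given above, had lower means in non-responders too, as did most markers of the 11 lists. With the mean score of the 11 lists as covariate, adipocytes included, the log2 fold changes were -0.48 for Pparg (edgeR adjusted p = 0.912) and -0.23 for Thrb (edgeR adjusted p = 0.953). In this fit other cells and response cannot be told apart, and the part of other cells in Pparg and Thrb was not tested. DESeq2 called 2 of the 12 genes, Pparg and Thrb, both lower in non-responders, and 3 had an unadjusted edgeR p under 0.05, where the shares of all genes were 13.2% and 23.8%.

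Genes that take up, make, store or degrade the ligand went both ways. Of 16 tested, 4 had a positive and 12 a negative log2 fold change (median -1.09), and 8 had an unadjusted edgeR p under 0.05, which 23.8% of all genes reached. Stra6, the gene of the cell-surface receptor that takes up retinol, was at 8.22 ± 8.58 CPM in non-responders and 2.05 ± 0.725 CPM in responders (2.0, SE 0.60, edgeR adjusted p = 0.117), and the log2 fold change was 1.09 without non-responder 4. Rdh10, which encodes a retinol dehydrogenase of the first oxidation step, was at 69.5 ± 41.4 CPM in non-responders and 26.02 ± 16.7 CPM in responders (1.42, SE 0.47, edgeR adjusted p = 0.123). Lrat, whose enzyme stores retinol as esters, was at 0.414 ± 0.239 CPM in non-responders and 5.03 ± 5.97 CPM in responders (-3.59, SE 1.12, edgeR adjusted p = 0.118). Aldh1a3, which encodes a retinaldehyde dehydrogenase that makes retinoic acid, was at 1.39 ± 0.567 CPM in non-responders and 4.84 ± 3.71 CPM in responders (-1.80, SE 0.59, edgeR adjusted p = 0.121). DESeq2 called 2 genes of this list as higher and 4 as lower in non-responders, against 522 and 1940 of all 18612 genes (13.2% together). With the other-cell score as covariate the log2 fold changes were 2.19 for Stra6, 1.12 for Rdh10, -1.62 for Lrat and -0.11 for Aldh1a3, with edgeR adjusted p-values of 0.769 to 0.984.

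Of the 16 genes listed as retinoic acid targets, 14 were tested, 2 with a positive and 12 with a negative log2 fold change (median -1.09). Some genes, Stra6 among them, stand in both this list and the ligand list. Meis1, a homeobox gene, was at 1.48 ± 0.736 CPM in non-responders and 9.51 ± 9.54 CPM in responders (-2.68, SE 0.75, edgeR adjusted p = 0.117). Rarres2, which encodes the chemoattractant chemerin, was at 2.61 ± 0.695 CPM in non-responders and 9.91 ± 6.34 CPM in responders (-1.92, SE 0.57, edgeR adjusted p = 0.117). Meis2, a paralogue of Meis1, was at 2.36 ± 0.917 CPM in non-responders and 45.1 ± 85.7 CPM in responders; its log2 fold change was -4.25 (edgeR adjusted p = 0.117, SE 1.28), and -2.67 without responder 7. With the other-cell score as covariate the log2 fold changes were -0.72 for Meis1, -0.04 for Rarres2 and -2.72 for Meis2, with edgeR adjusted p-values of 0.816 to 0.993. An unadjusted edgeR p under 0.05 was reached by 6 of the 14 (23.8% of all genes), and DESeq2 called 1 as higher and 5 as lower in non-responders (13.2% of all genes). In the high-Rag1 tumours 0 of the listed genes passed in edgeR and the medians of the ligand and target lists were -0.38 and -0.48. There 0 genes of either list had an unadjusted p under 0.05, against 958 of 17470 genes in all (5.48%, and 3.55% lower in non-responders). Of the other lists, 2 of 11 partner genes (Pparg and Thrb), 1 of 8 corepressor genes and 0 of 8 coactivator genes had an unadjusted edgeR p under 0.05 there.

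**Figure D5:**
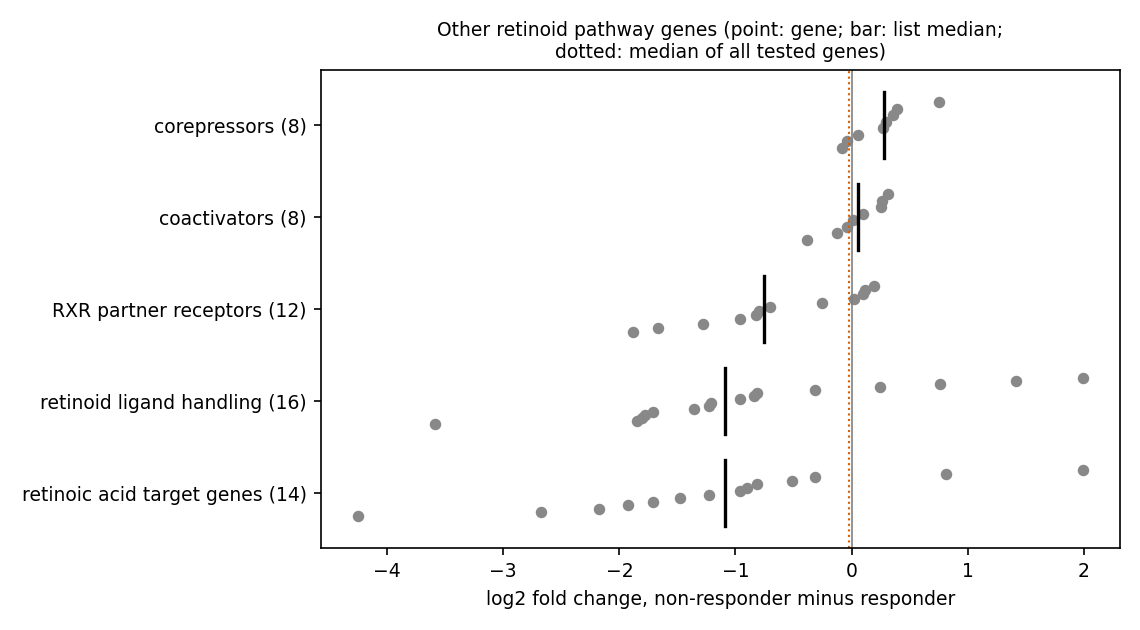
Log2 fold change, non-responder minus responder, of each tested gene of 5 lists of the retinoid pathway (points), with the list's median (bar) and the median of all tested genes (dotted line, -0.02). The cofactor lists lie near 0, and most ligand and target genes lie below it, with Stra6 at 2.0 the highest.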

How the data were processed

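The deposited table holds raw counts per Ensembl gene, which the authors made with HTSeq, per the submitters' processing notes; those notes also name DESeq and the NCBIM37 build, and mm10 is the assembly given with the library protocol. Which of these was counted on is unsettled. No aligner, version or strand setting is given in the sources used here. Symbols came from GENCODE M21 and matched 32919 of 37991 identifiers. Coordinates are annotation positions on GRCm38 and were not used in counting.

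Genes were filtered with filterByExpr (18612 kept) and tested with edgeR 4.0.16 in R 4.3.3 (TMM scaling, quasi-likelihood F test, robust dispersion, group as sole term, two-sided, Benjamini-Hochberg, threshold 0.05). Standard errors and 95% intervals came from the F statistic. Fold changes are non-responder minus responder. Log2 CPM used a prior count of 2. The alternatives are those of the closing section, with limma 3.58.1, DESeq2 1.42.0 and sva 3.50.0. The procedure was tested on simulated data. No library repeated another (lowest chi-square per degree of freedom for a pair, 58.8). The series' design text calls the 12 samples independent.

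The 6 genes, the lists and the tests were chosen with earlier results of these data known. Named genes are the 6 receptors, the 3 nearest in pattern to each, and list members with the lowest p.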

Additional observations from a re-analysis of the deposited data

Results flagged for a closer look

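For Rarg, 2 tumours stood apart from their groups on CPM, each by a gap to the nearest other tumour that was large for the range of the group. Non-responder 3 had 4.33 CPM, a gap of 0.865 of the range of the 4 non-responders, against a critical value of 0.829. Responder 4 had 48.7 CPM, a gap of 0.574 of the range of the 8 responders, against a critical value of 0.526. The measure was taken for 16 groups of values, the CPM of 6 genes and 2 log2 ratios in each response group. By chance the critical values flag about 1 in 20 groups of normally distributed values. For the 6 genes the gaps were taken on CPM and not on log2 CPM, so that rate need not hold. On log2 CPM the non-responders spanned 0.588 to 2.14, and the highest was 0.926 when non-responder 3 was left out. The responders spanned 1.59 to 5.61, and the highest was 4.49 when responder 4 was left out. By these values neither gap reaches its critical value on log2 CPM.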

How the results depend on the processing

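Fits were repeated with other scaling, filters, tools, depth, covariates and samples. limma-voom and DESeq2 called 1647 and 2462 genes in all, 0 and 2 receptor genes, and 3 and 12 retinoid list genes, against 0 in edgeR. In DESeq2 Rarg (-2.55) and Rxra (-1.45) passed. The sign of the log2 fold change turned for Rxrb with upper-quartile scaling (-0.045). With other-cell scores as covariate it turned for Rara (0.20), Rxrb (-0.12) and Rxrg (1.13), and with 1 surrogate variable for Rara (0.54), Rxra (0.29), Rxrg (1.79) and Lrat (0.30). With that variable the folds were -0.15 for Meis1, -0.079 for Rarres2, -0.69 for Meis2, -0.22 for Aldh1a3 and -0.56 for Pparg. In the high-Rag1 tumours it turned for Rara (0.51), and the log2 CPM difference was 0.50 for Rara and 0.49 for Rxrg; Rarg (-1.04) and the Rarg to Rara ratio (-1.54) no longer passed, with 4 against 3 tumours. The cause of these changes was not tested. Rxrg was not tested by edgeR in those 7 tumours.

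With each tumour left out in turn, edgeR called 0 to 5 genes in all. Rara ranged between -0.62 and -0.19 and Rarb between -0.79 and -0.23 in log2 fold change. Rxrb ranged between -0.083 and 0.11 in log2 fold change, negative without non-responder 1 or responder 1. On log2 CPM the differences ranged between -0.48 and -0.12 for Rara, -0.94 and -0.32 for Rarb (exact permutation p = 0.0303 without non-responder 1 and 0.0424 without non-responder 3), -1.61 and -1.05 for Rxra (exact permutation p = 0.00909 without responder 2), and -0.072 and 0.11 for Rxrb. The Rarg to Rara ratio ranged between -2.29 and -1.52, and the Rxra to Rxrb ratio between -1.64 and -1.07 (exact permutation p = 0.0424 without non-responder 3 and 0.0121 without responder 2). No paired analysis was possible because the labels give no replicate numbers or pairing. Depth limited Rxrg most, with 1 to 22 counts in non-responders and 4 to 151 in responders.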
